A study of Mus musculus with 10 samples.

Results

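p53 (gene symbol Trp53), its regulator and target Mdm2, its target genes Ccng1, Phlda3, Btg2, Sesn1 and Sesn2, and the GADD45 genes Gadd45a, Gadd45b and Gadd45g were followed across 10 libraries of sorted mouse skeletal stem cells. The 10 genes were chosen by name, all 10 were among the 15078 genes of the table, and all 10 passed the filter on low values that left 13644 genes for testing. RNA was sequenced from CD51+CD200+ cells, which lacked the blood and endothelial markers CD45, Ter119 and CD31. The graft BM-MSC group (n = 4) held Tomato+ cells from the marrow of femurs of transgenic Postn Cre-ER;tdTomato mice, collected 5 months after the femurs were placed under the skin of wild-type recipients. The recipients were given tamoxifen after transplantation, which switches on Tomato in cells that use the Postn promoter at that time and in their descendants. Postn is also used by osteoblasts and fibroblasts. The BM-MSC group (n = 3) and the P-SSC group (n = 3) came from the marrow and from the periosteum, the outer membrane of bone, of untreated wild-type mice that the labels name host and place at steady state. RNA of 2 mice was combined in BM-MSC 2+4 and in P-SSC 2+5, and the labels mark all 6 steady-state libraries as re-analyses of samples deposited under other records. Mice were young adults of 6 weeks or more unless stated otherwise, so the grafted bones, collected months later, were older. Tomato labelling, surgery, age and this separate record cannot be told apart from the graft group.

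p53 is a transcription factor that accumulates after DNA damage and other stress and switches on genes that stop the cell cycle, repair DNA or start cell death. Mdm2 is both its target and the ubiquitin ligase that marks it for destruction, so the pair forms a feedback loop, and much of the control of p53 acts on the protein and not on its mRNA. GADD45 proteins are small nuclear proteins that bind the kinase Map3k4, PCNA and Cdk1, and many stress signals induce them without p53. In bone, p53 is known to restrain the differentiation of osteoblasts.

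Libraries held between 15415421 and 25223295 reads, and between 9308 and 11674 genes were detected in graft libraries against 12217 to 13341 in the others. On the log2 scale the median over all genes tested was −0.47 for graft BM-MSCs minus P-SSCs, −0.53 for graft BM-MSCs minus BM-MSCs and 0.00 for P-SSCs minus BM-MSCs, and differences of the graft group are read relative to these. The libraries also fell into 2 sets by the level of genes with over 65% GC. The 4 graft libraries and P-SSC 4 were 1.58 to 2.90 log2 units above the mean library for these genes, and the other 5 were 1.57 to 2.16 units below it (the 44 GC-rich genes relative to 6446 genes of 50 to 60% GC). The sets were defined from the data. All graft libraries lie in one set and all BM-MSC libraries in the other, so the set and the group cannot be told apart for these groups except through P-SSC 4. With the sets as a covariate, graft BM-MSCs are therefore compared with P-SSC 4 alone, and BM-MSCs with P-SSC 1 and 2+5. The difference of graft BM-MSCs from BM-MSCs is then built from these parts. The stromal markers Cxcl12 and Lepr were at 560618 to 995477 and at 22640 to 45208 normalized read counts in the 7 marrow libraries, against 3503 to 7751 and 210.2 to 1034 in P-SSCs. Postn was listed at 0 in 3 graft libraries and at 235 in graft BM-MSC 4, and it was present in every steady-state library (3757 to 24829).

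The promoters of 3 of the genes are given first, because Gadd45b, Gadd45g and Btg2 were the most abundant of the 10 in P-SSCs and because the first pair each passed a test between groups. Each window runs from 250 bases before to 50 bases after the start of transcription in RefSeq (GRCm38.p6). Capitals mark the E box (CACGTG), the TATA box (TATAAA) and the cAMP response element (TGACGTCA). Gadd45b lies at chr10:80929841-80930140, + strand, Gadd45g at chr13:51846425-51846724, + strand, and Btg2 at chr1:134079106-134079405, − strand.
Gadd45b: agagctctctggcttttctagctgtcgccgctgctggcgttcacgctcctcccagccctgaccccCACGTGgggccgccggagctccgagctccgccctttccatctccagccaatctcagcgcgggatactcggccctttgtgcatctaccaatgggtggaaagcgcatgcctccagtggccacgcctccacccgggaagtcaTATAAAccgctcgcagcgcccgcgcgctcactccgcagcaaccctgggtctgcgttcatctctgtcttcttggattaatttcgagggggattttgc
Gadd45g: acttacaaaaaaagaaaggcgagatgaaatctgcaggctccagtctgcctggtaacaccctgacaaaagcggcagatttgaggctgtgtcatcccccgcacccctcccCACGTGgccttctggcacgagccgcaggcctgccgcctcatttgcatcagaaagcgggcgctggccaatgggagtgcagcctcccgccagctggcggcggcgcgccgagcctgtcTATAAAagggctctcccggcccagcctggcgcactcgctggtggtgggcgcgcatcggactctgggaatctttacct
Btg2: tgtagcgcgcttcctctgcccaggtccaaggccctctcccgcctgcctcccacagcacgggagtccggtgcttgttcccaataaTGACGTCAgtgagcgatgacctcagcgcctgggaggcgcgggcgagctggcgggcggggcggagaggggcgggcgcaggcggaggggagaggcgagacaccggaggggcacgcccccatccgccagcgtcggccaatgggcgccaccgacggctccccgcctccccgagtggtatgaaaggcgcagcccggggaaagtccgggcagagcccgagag
The Gadd45b and Gadd45g windows share the same pair of motifs in the same order. In Gadd45b the E box starts at base −185 and the TATA box at base −46 relative to the start, and in Gadd45g they start at −142 and −27. On both strands an E box was found in 7.15% of all 32851 windows, a TATA box in 13.6% and a cAMP response element in 1.79%. Trp53 was the other gene with both motifs, but in the opposite order. Its TATA box match started at base −248, on the reverse strand, and its E box at base 10, after the start. Btg2 was the one gene of the 10 with the cAMP response element, at base −166. The CCAAT box (CCAAT) was in the windows of 9 of the 10 genes, all but Phlda3, and in 37.4% of all windows. A p53 half-site was matched in Trp53, Mdm2, Ccng1, Gadd45a and a window of Sesn1 and in 8.36% of all windows. An NF-kB site was matched in Trp53, where it overlapped the CCAAT box, and in 4.51% of all windows. The AP-1 site (TGACTCA, 5.20% of windows) and the CArG box (1.63%) had no match in the 10 genes. Matches are descriptions of letters and do not show binding.

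**Figure D1:**
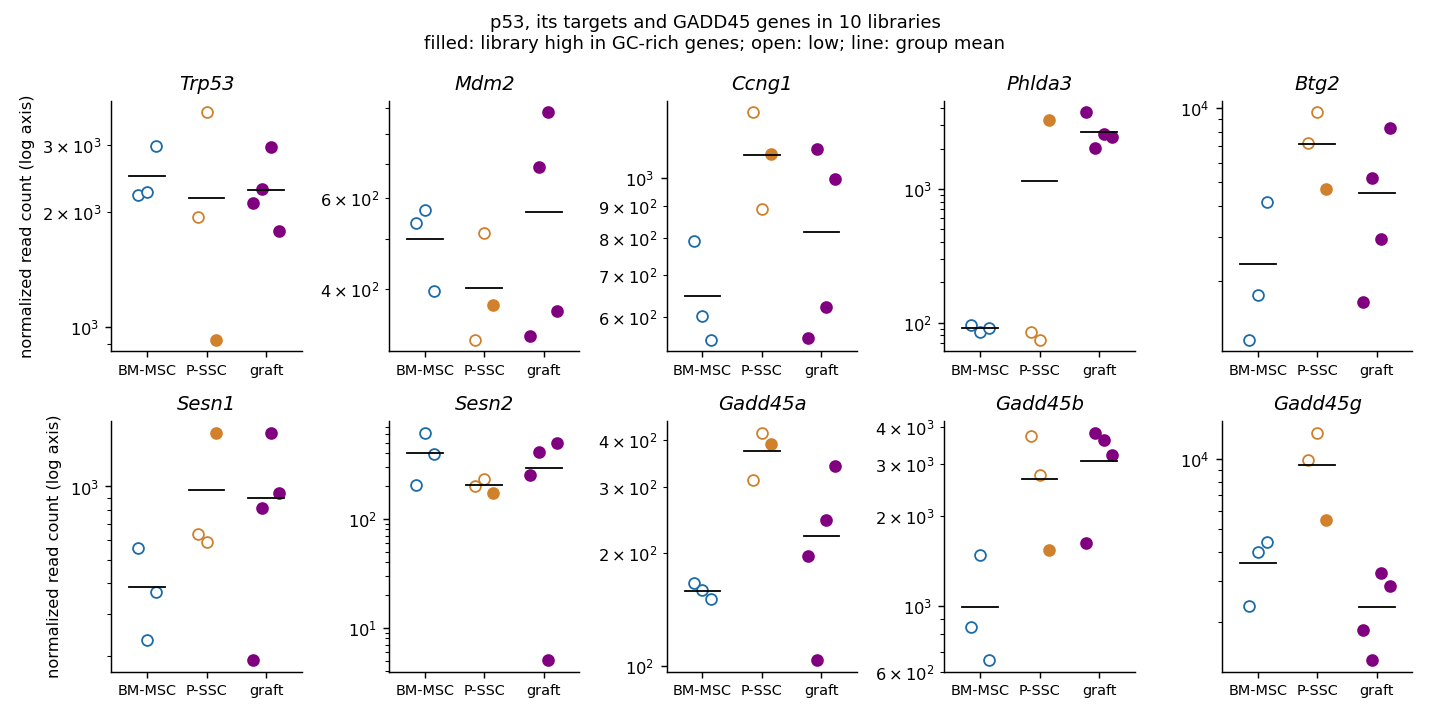
Normalized read counts (log axis) of the 10 genes in every library, with 1 point per library and a line at the group mean. Filled points are the 5 libraries that were high in GC-rich genes. Phlda3 follows the filled points, at 2013 or more in all 5 and at 96.1 or less in the others, while Gadd45g in P-SSCs lies above every graft library.

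Trp53 mRNA (chr11:69580359-69591873, + strand, GRCm38) was at 2222, 2256 and 2984 normalized read counts in BM-MSC 1, 2+4 and 3. It was at 1941, 3657 and 923 in P-SSC 1, 2+5 and 4, and at 2111, 2304, 2961 and 1780 in graft BM-MSC 1 to 4. The groups overlapped in every comparison, and the widest spread was within P-SSCs, where the highest library was 3.96 times the lowest. Group means were 2488 ± 431 (SD, n = 3) in BM-MSCs, 2174 ± 1382 (SD, n = 3) in P-SSCs and 2289 ± 497 (SD, n = 4) in graft BM-MSCs. Trp53 was 0.13 log2 units lower in graft BM-MSCs than in BM-MSCs (95% interval −1.04 to 0.77, limma adjusted p = 0.872) and 0.27 higher than in P-SSCs (−0.64 to 1.17, adjusted p = 0.680). The median gene was at −0.53 and −0.47 in these comparisons. Within the set of libraries high in GC-rich genes, all 4 graft libraries were above P-SSC 4, by a mean of 1.28 log2 units. P-SSC 4 was the lowest of all libraries for Trp53.

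Mdm2 (chr10:117688875-117710758, − strand), the ubiquitin ligase, was at 538, 569 and 395 in BM-MSC 1, 2+4 and 3, at 318, 515 and 371 in P-SSC 1, 2+5 and 4, and at 323, 689, 882 and 362 in graft BM-MSC 1 to 4. Graft BM-MSC 2 and 3 lay above every steady-state library and graft BM-MSC 1 and 4 lay within the P-SSC range. Mdm2 did not pass the test in any comparison, with log2 differences of 0.06 ± 0.45 (SE) for graft BM-MSCs against BM-MSCs, 0.39 ± 0.45 against P-SSCs and −0.33 ± 0.49 for P-SSCs against BM-MSCs. Of the 19 other regulators of p53 that were listed, 17 were tested. None passed between graft BM-MSCs and P-SSCs with limma (2 at an unadjusted p under 0.05, 0 by edgeR and 2 by DESeq2), and their median difference was −0.95 with limma, −0.23 with the library sets as a covariate and −0.39 with the GC correction, but 0.49 in edgeR and 0.41 in DESeq2. In both comparisons against BM-MSCs 1 of the 17 was lower with limma and none higher. Of all genes, 5.06% passed as lower in graft BM-MSCs and 4.58% in P-SSCs. In edgeR and DESeq2 none of the 17 was lower in either comparison, and DESeq2 called 1 higher in graft BM-MSCs. The GC correction kept 1 lower in graft BM-MSCs. In P-SSCs 0 were lower with the GC correction and 0 with the library sets as a covariate. The gene called by limma was Chek1, a checkpoint kinase of dividing cells. Chek1 was at 0 reads in all 4 graft libraries and at 13.6, 30.6 and 95.7 normalized read counts in BM-MSC 1, 2+4 and 3. The regulators' median for graft BM-MSCs against BM-MSCs was −0.92 with limma and −0.09 with the GC correction, but 0.01 with the sets as a covariate, 0.64 in edgeR and 0.65 in DESeq2. For P-SSCs against BM-MSCs it lay between −0.21 and 0.07 in these fits. Mdm4, a relative of Mdm2 that inhibits p53, was at 113 to 193 in BM-MSCs, 117 to 194 in P-SSCs and 192 to 322 in 3 graft libraries, and at 0 in graft BM-MSC 3. Cdkn2a, whose product Arf inhibits Mdm2, fell under the filter on low values and reached its highest value, 34.2, in graft BM-MSC 3.

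Between the steady-state groups, Gadd45a, Gadd45b, Gadd45g, Btg2, Ccng1 and Sesn1 were each higher in all 3 P-SSC libraries than in any BM-MSC library, and none of the 10 was lower in all. This is 6 of 10, against 30.9% of all genes tested whose P-SSC and BM-MSC values did not overlap in either direction and 15.1% whose P-SSC values were all higher. None of the 10 passed the limma test at an adjusted p under 0.05, while 9.15% of all genes did (4.57% higher and 4.58% lower), 3 of the 10 had an unadjusted p under 0.05, edgeR called 0 and DESeq2 called 2. The 10 genes had a median difference of 1.23 beside 0.00 for all genes, and the differences of Trp53, Mdm2 and Sesn2 were below 0 (−0.40, −0.33 and −0.87). With the 2 library sets as a covariate, Gadd45b and Gadd45g passed (adjusted p = 0.0479 and 0.0373, with log2 differences of 1.77 and 1.71), and 8.83% of all genes did. Without P-SSC 4 the same 2 genes passed with the same differences. Both fits take the difference from P-SSC 1 and 2+5 against BM-MSCs, so this is not a second result.

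Btg2 (chr1:134075170-134079120, − strand) encodes an antiproliferative protein that recruits the machinery shortening mRNA tails. It was at 1158, 1755 and 4155 in BM-MSC 1, 2+4 and 3, at 7174, 9586 and 4703 in P-SSC 1, 2+5 and 4, and at 1649, 5205, 2958 and 8299 in graft BM-MSC 1 to 4. P-SSCs lay above BM-MSCs, and the graft libraries ran from the BM-MSC range to the P-SSC range, 5.03-fold from lowest to highest. The difference of P-SSCs from BM-MSCs was 1.75 ± 0.61 log2 units (SE, 95% interval 0.40 to 3.11, limma adjusted p = 0.122), and it was 1.75 with an adjusted p of 0.0409 when only these groups were fitted. The graft group differed from BM-MSCs by 0.90 ± 0.57 (adjusted p = 0.349) and from P-SSCs by −0.85 ± 0.57 (adjusted p = 0.334).

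Ccng1 (chr11:40748552-40755311, − strand) encodes cyclin G1, which brings a phosphatase to Mdm2. It was at 793, 603 and 551 in BM-MSC 1, 2+4 and 3, at 1270.3, 892 and 1091 in P-SSC 1, 2+5 and 4, and at 555, 1111, 621 and 994 in graft BM-MSC 1 to 4. Every P-SSC library was above every BM-MSC library, and graft BM-MSC 2 and 4 lay with the former while 1 and 3 lay with the latter. The difference of P-SSCs from BM-MSCs was 0.74 ± 0.37 (adjusted p = 0.341), which did not pass.

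Other p53 targets were taken from lists. Cdkn1a, the cell cycle inhibitor p21 and the best known target of p53, was at 1791, 2548 and 2714 in BM-MSC 1, 2+4 and 3, at 10318.5, 8099 and 4628 in P-SSC 1, 2+5 and 4, and at 819, 1256, 882 and 609 in graft BM-MSC 1 to 4. No group overlapped another, and the order was P-SSCs, BM-MSCs, graft BM-MSCs. Cdkn1a was lower in graft BM-MSCs than in P-SSCs (−3.08 ± 0.34 log2 units, adjusted p = 0.000176) and than in BM-MSCs (−1.42 ± 0.34, adjusted p = 0.0322), and higher in P-SSCs than in BM-MSCs (1.65 ± 0.36, adjusted p = 0.0149). With the library sets as a covariate the first was −2.42 (adjusted p = 0.00733), the second −0.44 (adjusted p = 0.887) and the third 1.98 (adjusted p = 0.00554). The GC correction kept the first call (adjusted p = 0.0124) and ended the others (adjusted p = 0.630 and 0.0901). Of the 10 arrest and feedback targets tested, Cdkn1a was the only one that passed between graft BM-MSCs and P-SSCs and between P-SSCs and BM-MSCs. Of all genes, 12.0% passed as lower in the first comparison and 4.57% as higher in the second. Ier5, an early response gene, passed beside Cdkn1a between graft BM-MSCs and BM-MSCs (4.82 ± 0.89, adjusted p = 0.0107). There 2.61% of all genes passed as higher and 5.06% as lower. Ier5 was at 825 to 2050.4 in graft BM-MSCs and at 1341 in P-SSC 4 against 45.3 to 98.1 in the other 5 libraries, the split of the library sets.

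Zmat3, an RNA-binding target of p53, was at 0 to 26.0 in graft BM-MSCs against 50.9 to 117 in P-SSCs and 1.05 to 70.0 in BM-MSCs, and its difference from P-SSCs was −4.83 ± 1.58 (adjusted p = 0.0592). Of 12 death targets 1 was lower in graft BM-MSCs than in P-SSCs, the death receptor Tnfrsf10b (−4.79 ± 1.18, adjusted p = 0.0180), and 1 was lower than in BM-MSCs, the caspase scaffold Pidd1 (−6.65 ± 1.41, adjusted p = 0.0202). None was higher, and 12.0% and 5.06% of all genes passed as lower in these comparisons. Tnfrsf10b and Pidd1 were at 0 in all 4 graft libraries. Tnfrsf10b was only at 12.6 to 47.1 in P-SSCs, and Pidd1 was at 18.8 to 316 in BM-MSCs and 0 to 27.0 in P-SSCs. In the order of the comparisons, 1 and 0 death targets were lower with the library sets as a covariate. These counts were 0 and 1 with the GC correction, 0 and 0 in edgeR and 1 and 1 in DESeq2. Bax, which opens mitochondria in cell death, did not pass, with −0.75 ± 0.33 against P-SSCs and −0.73 ± 0.33 against BM-MSCs. Of 12 repair and metabolism targets 3 were lower in graft BM-MSCs than in P-SSCs, beside 12.0% of all genes. The 3 among these 12 targets included Abhd4 (−1.84 ± 0.25, adjusted p = 0.000590) and the peroxidase gene Gpx1 (−1.50 ± 0.28, adjusted p = 0.00369). Against P-SSCs 0 of them passed with the GC correction, 1 with the library sets as a covariate, 3 in edgeR and 3 in DESeq2. None of these 12 passed between graft BM-MSCs and BM-MSCs with limma (4 at an unadjusted p under 0.05, 0 by edgeR and 1 by DESeq2). Between P-SSCs and BM-MSCs 1 repair and metabolism target passed as higher, Abhd4 (1.15 ± 0.27, adjusted p = 0.0211), beside 4.57% of all genes. None of the death targets passed there with limma (1 at an unadjusted p under 0.05, 0 by edgeR and 0 by DESeq2). Ddb2, which recognises ultraviolet damage, was −5.57 ± 1.54 in graft BM-MSCs against BM-MSCs (adjusted p = 0.0540) and −4.34 ± 1.54 against P-SSCs (adjusted p = 0.0770). The median differences of the arrest, death and repair lists were −0.93, −0.83 and −0.92 when graft BM-MSCs were set against P-SSCs, beside −0.47 for all genes, and in that order they were −0.29, −0.11 and −0.24 with the GC correction, −2.03, −0.62 and −0.99 with the sets as a covariate, 0.17, −0.48 and −0.29 in edgeR and 0.11, −0.61 and −0.40 in DESeq2. Against BM-MSCs the limma medians were −0.95, −0.40 and −0.69, beside −0.53 for all genes. That of the arrest list was above 0 in edgeR and DESeq2 (0.15 and 0.17), and those of the death and repair lists were above 0 with the GC correction (0.01 and 0.17).

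**Figure D2:**
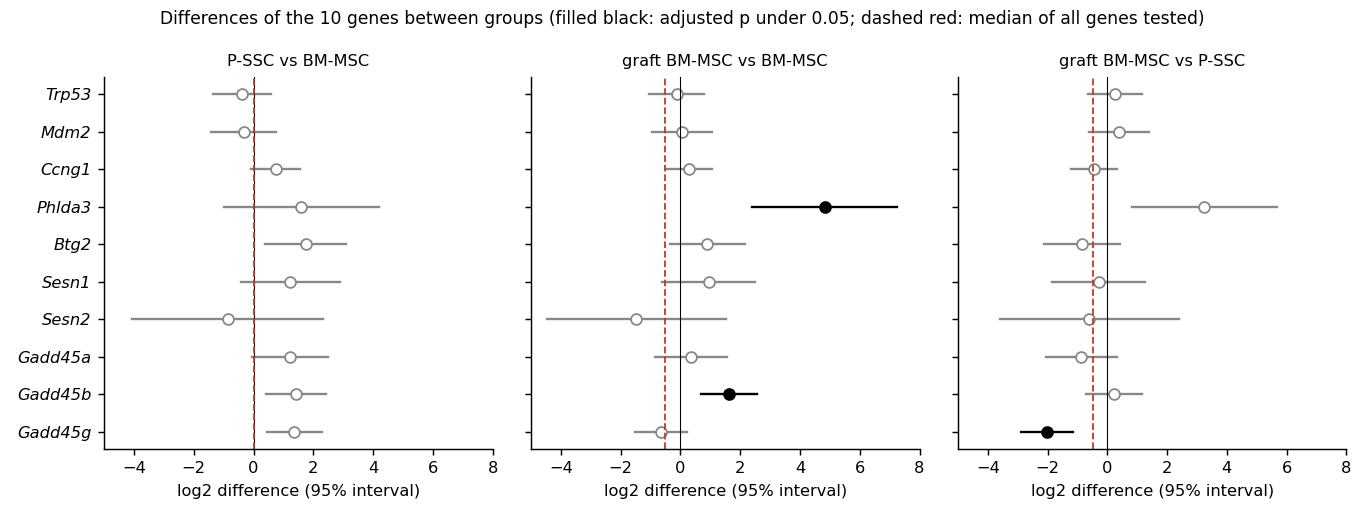
Differences of the 10 genes on the log2 scale (points) with 95% intervals (lines) for the 3 comparisons. Filled black points have a limma adjusted p under 0.05, and the dashed line is the median of all genes tested, at −0.47, −0.53 or 0.00. Phlda3 and Gadd45b pass between graft BM-MSCs and BM-MSCs, and Gadd45g passes between graft BM-MSCs and P-SSCs.

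In graft BM-MSCs, 2 of the 10 genes passed as higher than in BM-MSCs, Phlda3 and Gadd45b, and none as lower, while 7.67% of all genes passed (2.61% higher and 5.06% lower). The same 2 were the genes whose groups did not overlap, beside 25.0% of all genes in either direction and 10.3% with the graft libraries higher. Against P-SSCs 1 of the 10 passed, Gadd45g, which was lower and also the only one without overlap, while 18.1% of all genes passed (6.08% higher and 12.0% lower) and 26.6% did not overlap, 18.5% with the graft libraries lower. With the library sets as a covariate none of the 10 passed in either comparison with limma (2 at an unadjusted p under 0.05 in each), and 0.293% and 7.92% of all genes did. edgeR called 0 and 1 and DESeq2 called 1 and 1 of the 10 against BM-MSCs and P-SSCs. These comparisons share the graft libraries.

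Phlda3 (chr1:135766119-135769136, + strand) encodes a small protein that competes with the kinase Akt for membrane lipids. It was at 96.1, 84.4 and 91.7 in BM-MSC 1, 2+4 and 3, at 85.2, 73.9 and 3294 in P-SSC 1, 2+5 and 4, and at 3739, 2013, 2554 and 2419 in graft BM-MSC 1 to 4. The libraries took 2 levels with nothing between them, and P-SSC 4 lay inside the graft range while the other P-SSC libraries lay with BM-MSCs. Phlda3 was 4.83 ± 1.10 log2 units higher in graft BM-MSCs than in BM-MSCs (95% interval 2.41 to 7.26, adjusted p = 0.0263), and 3.24 ± 1.10 higher than in P-SSCs (adjusted p = 0.0658). The 2 levels are the 2 library sets: all 5 libraries high in GC-rich genes were above all 5 others, as they were for 6.67% of all genes tested. Its exons are 60.2% GC, above 96.5% of the genes tested, and its promoter window is 71.7% GC. The exons of Gadd45g are 60.5% GC, and its values in the 2 sets overlapped. Of the 44 genes tested with over 65% GC, 15 were higher in all 5 libraries of the high set than in all others. The part of GC content in the split of Phlda3 was not tested. For Phlda3 the graft libraries differed from P-SSC 4 by −0.33 log2 units within the high set. Within the low set P-SSCs differed from BM-MSCs by −0.19. The covariate fit is built from these values and is not a separate result. The fit with the sets as a covariate gave −0.52 for graft BM-MSCs against BM-MSCs (adjusted p = 0.880) and −0.33 against P-SSCs (adjusted p = 0.757). A correction for GC content left the difference between the marrow groups past the threshold and brought that against P-SSCs past it, to 3.65 (adjusted p = 0.0102). Leaving out P-SSC 4 raised the difference from P-SSCs to 5.02 (adjusted p = 6.89e-05). The call against BM-MSCs was lost without graft BM-MSC 1, BM-MSC 1, BM-MSC 2+4 or BM-MSC 3 (adjusted p from 0.0560 to 0.0950), and in edgeR (0.0715), and DESeq2 gave it no adjusted p. The part of the library sets in the level of Phlda3 in graft BM-MSCs cannot be told apart from that of the group.

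**Figure D3:**
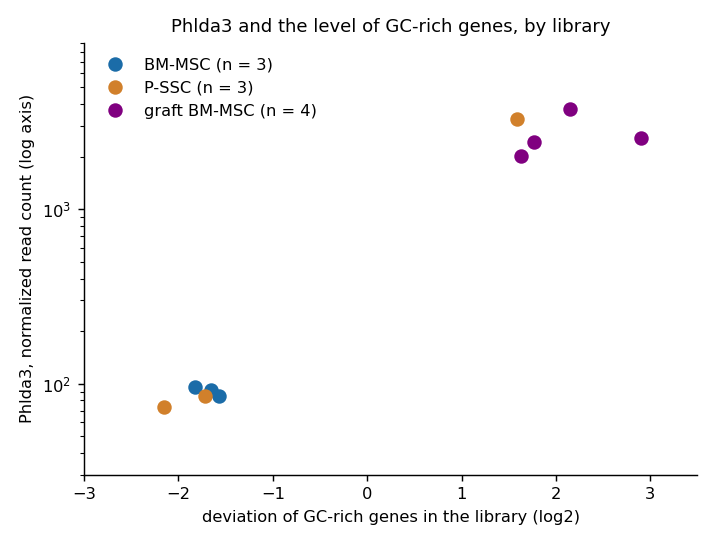
Normalized read count of Phlda3 (log axis) against the deviation of the 44 GC-rich genes in the same library (log2), with 1 point per library. The 4 graft libraries and P-SSC 4 lie together at 2013 to 3739 and at a deviation of 1.58 or more, and the other 5 at 73.9 to 96.1 and at −1.57 or less.

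Btg1 and Phlda1, relatives of Btg2 and Phlda3, split by library set in part. Btg1 was at 1623 to 3734 in graft BM-MSCs and at 1015 in P-SSC 4, against 201 to 386 in the other 5 libraries. It passed as higher in graft BM-MSCs than in BM-MSCs (3.05 ± 0.53, adjusted p = 0.00831) and than in P-SSCs (2.50 ± 0.53, adjusted p = 0.00843), and with the sets as a covariate these were 1.10 (adjusted p = 0.795) and 1.20 (adjusted p = 0.281). Btg1 was the 1 relative of the 7 tested that passed in both graft comparisons. Of all genes, 2.61% passed as higher against BM-MSCs and 6.08% against P-SSCs. No relative passed between P-SSCs and BM-MSCs with limma (1 at an unadjusted p under 0.05, 0 by edgeR and 2 by DESeq2). Phlda1 was at 113 to 277 in graft BM-MSCs, 12.7 to 65.1 in BM-MSCs and 102 to 525 in P-SSCs, and its difference between the marrow groups, 2.81 ± 0.90, did not pass (adjusted p = 0.0886). Ccng2, a relative of Ccng1, was at 263 to 885 in graft BM-MSCs, 69.0 to 131 in BM-MSCs and 6.37 to 492 in P-SSCs, with 492 in P-SSC 4, and did not pass either (2.34 ± 1.20 between the marrow groups, adjusted p = 0.250).

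The sestrins sense amino acids and restrain the growth kinase mTORC1, Sesn1 mainly as a p53 target and Sesn2 also as a target of the stress factor ATF4. Sesn1 (chr10:41809935-41908424, + strand) was at 557, 233 and 369 in BM-MSC 1, 2+4 and 3, at 639, 589 and 1667 in P-SSC 1, 2+5 and 4, and at 193, 815, 1655 and 936 in graft BM-MSC 1 to 4. It was higher in every P-SSC library than in every BM-MSC library (1.23 ± 0.75, adjusted p = 0.497), and graft BM-MSC 1 was the lowest of all 10 libraries while the other 3 graft libraries were above all BM-MSCs. The graft group differed from BM-MSCs by 0.95 ± 0.70 (adjusted p = 0.424). Without graft BM-MSC 1 the difference from P-SSCs turned from −0.28 to 0.34, and neither passed.

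Sesn2 (chr4:132492032-132510501, − strand) was at 207, 620 and 391 in BM-MSC 1, 2+4 and 3, at 200.5, 234 and 174 in P-SSC 1, 2+5 and 4, and at 252, 415, 5.04 and 495 in graft BM-MSC 1 to 4. Graft BM-MSC 3 held 5 reads of Sesn2, and the other 3 graft libraries lay within the BM-MSC range. In the same library 234 of the 7661 genes at 100 or more in the other 3 graft libraries were under 0.1 times each of them, against 89 in graft BM-MSC 4 and 815 in graft BM-MSC 2. Sesn2 differed from BM-MSCs by −1.47 ± 1.35 in graft BM-MSCs (adjusted p = 0.519), and by 0.02 without graft BM-MSC 3. Of 14 ATF4 targets tested with limma, 4 were lower in graft BM-MSCs than in P-SSCs and 3 lower than in BM-MSCs. None was higher, and 12.0% and 5.06% of all genes passed as lower. In that order 1 and 0 were lower with the library sets as a covariate and 1 and 1 with the GC correction. edgeR called 2 and 1 lower and DESeq2 3 and 3. With the GC correction 1 was also higher than in BM-MSCs. The limma calls included Aldh18a1, an enzyme of proline synthesis (−2.27 ± 0.34, adjusted p = 0.00106, and −2.11 ± 0.34, adjusted p = 0.00601). They also included the pseudokinase gene Trib3 against P-SSCs (−7.00 ± 1.72, adjusted p = 0.0174) and the mTORC1 inhibitor gene Ddit4 against BM-MSCs (−5.21 ± 1.31, adjusted p = 0.0392). The list's limma medians were −2.06 and −1.79, beside −0.47 and −0.53 for all genes. In that order they were −1.10 and −0.88 with the GC correction and −1.75 and −1.75 with the library sets as a covariate. They were −1.07 and −1.18 in edgeR and −1.19 and −1.17 in DESeq2. In P-SSCs 2 ATF4 targets were higher than in BM-MSCs and none was lower, namely Ppp1r15a (2.81 ± 0.46, adjusted p = 0.00244), a phosphatase subunit, and Atf4 itself (1.10 ± 0.25, adjusted p = 0.0203). The GC correction and edgeR each called 1 higher, and 4.57% of all genes passed as higher with limma. Sesn3, which is controlled by FoxO factors, was at 10.1 to 339 in graft BM-MSCs, 10.8 to 51.7 in BM-MSCs and 40.7 to 81.0 in P-SSCs. Per kilobase of exon it made up 5.60% or less of the sestrin signal in every library.

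Gadd45g (chr13:51846678-51848468, + strand) was at 2352, 3986 and 4420 in BM-MSC 1, 2+4 and 3, at 9924, 12995 and 5462 in P-SSC 1, 2+5 and 4, and at 1842, 1369, 3237 and 2848 in graft BM-MSC 1 to 4. The lowest P-SSC library was above every other library, and graft BM-MSCs and BM-MSCs overlapped. Gadd45g was 2.02 log2 units lower in graft BM-MSCs than in P-SSCs (SE 0.39, 95% interval −2.89 to −1.15, adjusted p = 0.00492), further than the −0.47 of the median gene. Graft BM-MSCs were lower than BM-MSCs by 0.66 ± 0.39 log2 units (adjusted p = 0.321), which did not pass and lies near the median of −0.53. The call against P-SSCs held without each of the 10 libraries in turn (adjusted p from 0.00288 to 0.0274) and in edgeR (0.00975) and DESeq2 (3.64e-05). Within the GC-rich high set all 4 graft libraries were below P-SSC 4, and the fit with the sets as a covariate gave −1.31 (adjusted p = 0.200). The GC correction gave −1.67 (adjusted p = 0.0631), and the call held in neither of these fits.

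Gadd45b (chr10:80930073-80932204, + strand) was at 845, 1481 and 654 in BM-MSC 1, 2+4 and 3, at 3724, 2752 and 1540.3 in P-SSC 1, 2+5 and 4, and at 1623, 3828, 3617 and 3218 in graft BM-MSC 1 to 4. Every graft library and every P-SSC library was above every BM-MSC library, while the first pair of groups overlapped. Gadd45b was higher in graft BM-MSCs than in BM-MSCs by 1.64 ± 0.42 log2 units (95% interval 0.70 to 2.58, adjusted p = 0.0426), against a median gene that was lower by 0.53. The call was lost when any 1 of 8 of the 10 libraries was left out (adjusted p from 0.0504 to 0.165) and held without graft BM-MSC 1 or without P-SSC 4. In edgeR the difference was 1.61 (adjusted p = 0.0708) and in DESeq2 1.63 (adjusted p = 0.00669). With median centring it was 1.48 (adjusted p = 0.111), with the library sets as a covariate 2.69 (adjusted p = 0.215), and within the GC-rich high set all 4 graft libraries were above P-SSC 4. The difference of P-SSCs from BM-MSCs was 1.42 ± 0.45 (adjusted p = 0.0856), and that of graft BM-MSCs from P-SSCs 0.22 ± 0.42 (adjusted p = 0.749).

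Gadd45a (chr6:67035096-67037457, − strand), the family member most directly tied to p53, was at 167, 159 and 151 in BM-MSC 1, 2+4 and 3, at 314, 419 and 391 in P-SSC 1, 2+5 and 4, and at 197, 104, 246 and 341 in graft BM-MSC 1 to 4. P-SSCs were above BM-MSCs without overlap (1.22 ± 0.58, adjusted p = 0.303), and the graft libraries spanned both groups. The BM-MSC libraries agreed within 1.11-fold and the graft libraries differed by 3.29-fold. The difference of graft BM-MSCs from P-SSCs, −0.87 ± 0.54, did not pass (adjusted p = 0.298).

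The make-up of the GADD45 family within a library does not depend on scaling between libraries. Of the summed level of the 3 genes per kilobase of exon, Gadd45b took 20.2%, 21.1% and 9.65% in BM-MSC 1, 2+4 and 3. It took 21.3%, 13.3% and 16.6% in P-SSC 1, 2+5 and 4, and 37.8%, 66.3%, 44.0% and 43.6% in graft BM-MSC 1 to 4. All graft libraries were above all others, and P-SSC 4, the P-SSC library in the GC-rich high set, lay with the other P-SSCs. Gadd45g took 76.2% to 88.3% in BM-MSCs, 77.0% to 84.9% in P-SSCs and 32.1% to 58.1% in graft BM-MSCs, and Gadd45a 4.16% or less in every library. The ratio of Gadd45b to Gadd45g per kilobase was 0.65 to 2.06 in graft BM-MSCs and 0.11 to 0.28 in the 6 steady-state libraries. These shares were chosen after the values had been seen and are given without a test.

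**Figure D4:**
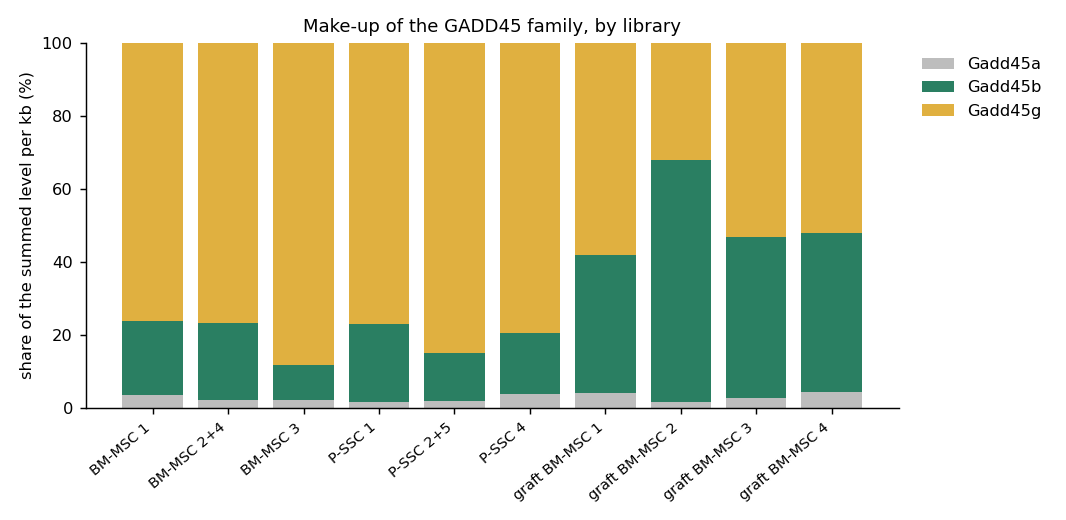
Share of each GADD45 gene in the family's summed level per kilobase of exon (%), with 1 bar per library. Gadd45b makes up 37.8% to 66.3% in the 4 graft libraries and 9.65% to 21.3% in the 6 steady-state libraries, and Gadd45g most of the rest.

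Of 11 partners of GADD45 proteins that were tested, Cdkn1a was the only one that passed in the graft comparisons with limma. It was lower in both, beside 12.0% of all genes against P-SSCs and 5.06% against BM-MSCs. Against P-SSCs the GC correction called 2 higher and 1 lower, and edgeR and DESeq2 each called 1 higher and 1 lower. Against BM-MSCs the GC correction called 1 higher and 0 lower, edgeR 0 and 0, and DESeq2 1 and 2. Between P-SSCs and BM-MSCs Cdkn1a was higher and Ccnb1, the mitotic cyclin bound by the GADD45 target Cdk1, was lower (−8.18 ± 2.08, limma adjusted p = 0.0329). Of all genes, 4.57% passed as higher and 4.58% as lower. Among the partners 1 was higher and 0 lower with the library sets as a covariate, and 0 and 1 with the GC correction. edgeR and DESeq2 each called 1 higher and 1 lower. The partners' median for graft BM-MSCs against P-SSCs was 1.03, but −0.58 with the library sets as a covariate. For graft BM-MSCs against BM-MSCs it was −1.04, but 0.04 in edgeR and 0.07 in DESeq2. For P-SSCs against BM-MSCs it was 0.40, but −0.29 with the sets as a covariate.

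Gadd45b and Btg2 are also early response genes, so a list of immediate early genes, the first genes transcribed after a stimulus, is given beside them. Of 20 tested, 6 were higher in graft BM-MSCs than in BM-MSCs and none lower, with a median difference of 1.66. In P-SSCs 5 were higher than in BM-MSCs and none lower, with a median of 2.06. Of all genes, 2.61% and 4.57% passed as higher in these comparisons. Between graft BM-MSCs and P-SSCs 2 were higher and 5 lower, beside 6.08% and 12.0% of all genes. The median there was −0.10, and it was above 0 with the GC correction (0.62), in edgeR (0.13) and in DESeq2 (0.03). The summed reads of the 20 genes were 2321 to 4152 ppm in BM-MSCs, 10836 to 14064 ppm in P-SSCs, and 6224, 29604, 19971 and 23438 ppm in graft BM-MSC 1 to 4. Graft BM-MSC 1, the lowest of the graft libraries in this sum, was also the lowest in Gadd45b and Btg2. It was likewise the lowest of them in Mdm2, Ccng1 and Sesn1, but not in Trp53, Phlda3, Sesn2, Gadd45a or Gadd45g. Jund and Dusp1 were the 2 most raised in graft BM-MSCs against BM-MSCs (6.91 ± 1.15, adjusted p = 0.00655, and 5.82 ± 0.98, adjusted p = 0.00725), and both were also high in P-SSC 4 and low in the other steady-state libraries. With the library sets as a covariate none of the 20 passed between these groups with limma (4 at an unadjusted p under 0.05), while edgeR without the covariate called 4 and DESeq2 14. In P-SSCs against BM-MSCs the 2 most raised of those that passed with limma, without the covariate, were Klf4 (5.36 ± 0.76, adjusted p = 0.00102) and Atf3 (4.84 ± 0.84, adjusted p = 0.00375). Atf3 was lower in graft BM-MSCs than in P-SSCs (−5.06 ± 0.79, adjusted p = 0.00131). Periosteum was digested for longer than marrow before sorting. The part of the early response, and of the digestion, in the levels of Gadd45b and Btg2 was not tested.

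Transcripts of other cells moved with the groups as well. The summed reads of 17 hematopoietic markers were 469 to 6373 ppm in graft BM-MSCs, 4669 to 13643 ppm in BM-MSCs and 20.8 to 77.3 ppm in P-SSCs. Of these 17, 6 were higher in graft BM-MSCs than in P-SSCs, 11 were lower in P-SSCs than in BM-MSCs and 1 was lower in graft BM-MSCs than in BM-MSCs. In that order 6.08%, 4.58% and 5.06% of all genes passed in the same direction. Ptprc, which encodes CD45, was at 0 in P-SSCs and at 196 or less elsewhere, and the highest sums were of hemoglobin and neutrophil granule genes. The summed reads of 4 endothelial markers were 3.26 ppm or less in graft BM-MSCs, 1.19 to 4.56 ppm in BM-MSCs and 174 to 327 ppm in P-SSCs. Nearly all of those in P-SSCs were reads of Tek, and the other markers did not follow it. Cdh5 was at 0 in all marrow libraries and at 2.08 to 58.6 in P-SSCs. In P-SSCs Flt1 was at 5.10 or less and Emcn at 0, against 24.3 to 81.5 for Emcn in BM-MSCs. Between P-SSCs and BM-MSCs Tek passed as higher (11.87 ± 1.06, limma adjusted p = 7.82e-05) and Emcn as lower (−5.58 ± 0.79, adjusted p = 0.00101). The part of these cells in the levels of the 10 genes was not tested, and in bulk RNA fewer cells of a type and less RNA per cell cannot be told apart.

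Levels were compared between genes as normalized read counts per kilobase of exon. Gadd45g was the most abundant of the 10 in all 3 groups, with means of 3057 in BM-MSCs, 8065 in P-SSCs and 1981 in graft BM-MSCs. In P-SSCs and BM-MSCs it was followed without overlap by Btg2 (2608 and 859), and then by Gadd45b (1681 and 625), which overlapped Btg2. In graft BM-MSCs Gadd45g, Gadd45b (1933), Phlda3 (1720) and Btg2 (1651) overlapped their neighbours, and Trp53 (566) stood above Ccng1 (234) without overlap. Mdm2 (111, 98.6 and 78.9 in graft BM-MSCs, BM-MSCs and P-SSCs), Sesn2 (84.0, 117 and 58.4) and Gadd45a (126, 90.2 and 212) ranked sixth or lower in each group. Trp53 ranked above 89.5%, 89.4% and 87.5% of genes tested in graft BM-MSCs, BM-MSCs and P-SSCs, and Mdm2 above 65.7%, 65.1% and 59.0%.

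The genes whose pattern over the 10 libraries was most like that of 4 of the genes were found by Pearson's r of log2 values among 9546 genes with a mean of at least 100. For Trp53 they were Atp6v0e (r = 0.96), Cox5b (0.92) and Ndufa7 (0.91), for Mdm2 Adra2a (0.89), Id1 (0.88) and Acot8 (0.87), for Gadd45b Epc1 (0.95) and Irs2 (0.91), and for Btg2 Hk2 (0.90), Fos (0.88) and Eif3h (0.88). The libraries share groups, depth and the library sets, so these coefficients are descriptions and carry no p-value.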

How the data were processed

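RNA sequencing of 10 libraries was used. The authors trimmed reads with cutadapt 1.15, aligned them with STAR (2.5 in the processing notes), counted genes with featureCounts (Subread 1.4.6) and normalized with DESeq2 1.26.0. The methods name GRCm38 and the processing notes GRCm39. The deposited signal values are counts divided by a size factor, and dividing by the value of 1 read gave whole reads (tolerance 0.01) for 100% of them. Depth covers counting error only, and p-values measure the spread between these libraries, since separate animals are stated only in part.

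Values were analysed as log2(value + 1), which understates changes of low genes. The 13644 genes whose mean reached 10 were fitted with limma 3.58.1 (R 4.3.3), 1 mean per group over all libraries, empirical Bayes with trend, two-sided, Benjamini-Hochberg threshold 0.05. edgeR 4.0.16 and DESeq2 1.42.0 were run on the recovered reads, and the methods were tested on simulated data. Coordinates and exon lengths are from GENCODE M21 (GRCm38) by Ensembl ID. The genes and lists were chosen with earlier results of these data known. Named by rule were the 10 genes, up to 2 highest and 2 lowest passing genes of a list per comparison, 10 set regulators, targets and relatives, and the 3 genes most alike 4 of the genes, apart from 1 that is not reported here. Same-numbered libraries deviated from group means with correlations of −0.0191 to 0.0295, so numbers were not taken to pair samples. Alternatives were other pseudocounts, filters and scalings, a GC correction, the library sets as a covariate, fits of the groups compared, a replicate block and leaving out each library.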

Additional observations from a re-analysis of the deposited data

Results flagged for a closer look

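Sesn2 in graft BM-MSC 3 stood apart from the other graft libraries. Its normalized read count was 5.04, and on the log2 scale its gap to the nearest graft library was 0.848 of the group's whole range, above Dixon's 95% critical value of 0.829 for 4 libraries. It was the only one of 10 such sets examined, 1 per gene in the graft group, that stood apart, and chance alone does so in about 1 in 20 sets.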

How the results depend on the processing

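The count of genes among the 10 that passed was 1 for graft BM-MSCs against P-SSCs, 2 for graft BM-MSCs against BM-MSCs and 0 for P-SSCs against BM-MSCs. In that order the counts were 0, 0 and 2 with the library sets as a covariate, 0, 0 and 0 with the replicate block, 2, 1 and 0 with median centring, 2, 2 and 0 with quantile normalization, 1, 0 and 0 in edgeR, 1, 1 and 2 in DESeq2 and 1, 2 and 2 when only the groups compared were fitted. Pseudocounts, filters and the GC correction left all 3 counts as they were, but not always the genes. With the GC correction the 1 gene that passed against P-SSCs was Phlda3, which was higher (3.65, limma adjusted p = 0.0102). Gadd45g, which was lower, no longer passed (−1.67, adjusted p = 0.0631). Leaving out 1 library gave 1 to 2, 0 to 2 and 0 to 2. The replicate block rests on numbers that did not pair the samples and on 2 residual degrees of freedom, and it called 269, 3 and 54 of all genes. Of 660 log2 differences recomputed for the 10 genes, 31 changed sign, and 1 of the 3 that had passed did so, Phlda3 against BM-MSCs.

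The sign of the difference of graft cells from P-SSCs changed for Phlda3 with the sets as a covariate (−0.33), for Sesn1 (0.56), Sesn2 (0.15) and Gadd45a (0.074) with the GC correction, and for Sesn2 with the replicate block (0.036), edgeR (0.61) and DESeq2 (0.50). That of graft cells from BM-MSCs changed for Trp53 (1.40), Phlda3 (−0.52), Sesn1 (−0.49) and Gadd45g (0.40) with the sets as a covariate, for Trp53 with the GC correction (0.83), quantile normalization (0.0099) and the replicate block (0.065), for Mdm2 with median centring (−0.10) and quantile normalization (−0.061), and for Ccng1 with the replicate block (−0.053). That of P-SSCs from BM-MSCs changed for Trp53 (0.11) and Phlda3 (−0.19) with the sets as a covariate.

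Leaving out 1 library at a time gave, against P-SSCs, −0.24 to 0.75 for Trp53 (its next highest value was 0.38), −0.70 to 0.34 for Sesn1, −1.24 to 0.88 for Sesn2 and −0.13 to 0.50 for Gadd45b in graft BM-MSCs. Against BM-MSCs it gave −0.26 to 0.0071 for Trp53, −0.20 to 0.29 for Mdm2 and −2.10 to 0.017 for Sesn2. In P-SSCs against BM-MSCs it gave −0.88 to 0.11 for Trp53 (its next lowest value was −0.47) and −0.19 to 2.54 for Phlda3 (next highest 2.44). The cause was not tested for any of these.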
